A study of Mus musculus with 24 samples.

Results

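Chemokines and their receptors were examined in bulk RNAseq of the main olfactory epithelium (OE) of *WT* and *iRhom2-/-* mice. Members were all genes whose symbol is Ccl, Cxcl, Ccr, Cxcr or Ackr followed by a number, with or without further lower-case letters, which gave 57 of the 45706 genes in the count table. They comprised 37 ligands (Ccl and Cxcl) and 20 receptors (Ccr, Cxcr and the atypical receptors Ackr). The rule used names alone and no measured value, but the members were chosen with earlier results of these data known. Whole OE of both nares was taken from untreated mice of a mixed 129Sv and C57BL/6 background, with 3 *WT* and 3 *iRhom2-/-* mice at each of 5, 8, 10 and 30 weeks. The *iRhom2-/-* mice carry a targeting construct in *Rhbdf2*, the gene of iRhom2, with LacZ under the endogenous promoter, and no functional protein, although the first exons are still transcribed. At 8 weeks the *WT* mice were 2 males and 1 female and the *iRhom2-/-* mice were 3 males. At 10 weeks each genotype had 2 males and 1 female, and all mice of 5 and 30 weeks were male. The libraries of 8 weeks and of 10 weeks could each be tied to a mouse. The libraries of 5 and 30 weeks, 6 per genotype, carry the genotype but not the age of each, and they form a single set here, the 5- or 30-week libraries, numbered 7 to 12. These 3 sets of libraries came from different sequencing submissions, so age and submission cannot be told apart between sets.

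Chemokines are small secreted proteins that direct the movement of leukocytes along concentration gradients by way of seven-transmembrane receptors coupled to inhibitory G proteins. Homeostatic ligands such as CXCL12 and CCL21 are made continuously by stroma and place cells within tissues, whereas inflammatory ligands such as CXCL9, CXCL10 and CCL2 are induced by interferon, TNF or NF-kB signalling. Atypical receptors bind ligands without G protein signalling and remove or transport them. iRhom2 is a partner of the membrane protease ADAM17, which releases TNF and other membrane proteins, and the membrane-bound chemokine CXCL16 is cut by the related ADAM10.

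The libraries held 25333822 to 48660394 counts, with medians of 44361013 at 8 weeks, 34382483 at 10 weeks and 28233476 at 5 or 30 weeks. A count of 3, the limit that a count of 0 allows, corresponded to 0.0622 to 0.112 CPM (counts scaled to library size), and this limit covers counting error only. *Rhbdf2* had 556 to 1034 counts in the *WT* libraries (median 709.5) and 220 to 637 in the *iRhom2-/-* libraries (median 320). Its log2 fold change, here always *iRhom2-/-* over *WT*, was -1.08 (SE 0.087, edgeR adjusted p = 9.78e-08, n = 12 per genotype). Markers of mature olfactory sensory neurons (OSNs) summed to 8432 to 16090 CPM and sustentacular markers to 2976 to 6719 CPM over the 24 libraries. Of the 57 members, 14 lie on chromosome 11, which also holds *Rhbdf2*. *Ccr10* was the closest of them, 15.4 Mb away.

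Apart from the others stood 3 *WT* libraries, namely *WT* mouse 1 of 8 weeks and *WT* libraries 7 and 8 of the 5- or 30-week set. They were chosen after the data were seen and are the 3 *WT* libraries with the most *Cxcl9* counts. Their lead in *Cxcl9* therefore follows from the choice. Values given below without them are a description and cannot decide whether a difference holds. *Cxcl9* and *Cxcl10* together reached 33.2 to 43.7 CPM in these, against 1.67 to 8.04 CPM in the 9 other *WT* libraries and 0.276 to 3.34 CPM in the *iRhom2-/-* libraries. Summed markers of T cells were 15.7 to 52.2 CPM in the 3 libraries, 5.95 to 11.3 CPM in the 9 others and 2.66 to 13.1 CPM in *iRhom2-/-*. Summed NK cell markers were 5.71 to 6.77, 1.41 to 2.51 and 0.861 to 4.34 CPM in the same order, with no overlap between the 3 libraries and the rest. Summed macrophage markers overlapped, at 409.5 to 612.5, 291.1 to 546.5 and 169.1 to 720.5 CPM. Plasma cell markers summed to 1631 CPM in *WT* mouse 1 of 8 weeks and to 152.8 to 449.2 CPM in all other libraries. The 3 libraries also had lower mature OSN markers (8432 to 9195 CPM) than the 9 other *WT* libraries (10360 to 15810 CPM), and lower sustentacular markers (3153 to 3702 against 3736 to 6719 CPM). A further library, *iRhom2-/-* mouse 2 of 10 weeks, had 3982 CPM of summed erythrocyte markers beside a highest value of 1973 CPM in *WT*. The part of these cell types in the results was not tested. In bulk samples fewer cells of a type and less RNA per cell cannot be told apart.

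The most abundant members per transcript length were homeostatic and epithelial chemokines, and the order of levels was led by *Ccl21a*, *Ccl21d*, *Cxcl17*, *Cxcl12* and *Cxcl5*. Levels were expressed as CPM per kb of annotated exon sequence, which was found for all 57 members, and as mean ± SD over 24 libraries. *Ccl21a*, a ligand of CCR7 made by lymphatic endothelium and lymphoid stroma, had 55.0 ± 17.0 CPM per kb. Its near-identical copy *Ccl21d* had 31.2 ± 9.78 and *Ccl21b* had counts in only 3 libraries, and the division of reads between these copies is uncertain. *Cxcl17*, a mucosal chemokine, had 26.8 ± 9.87 CPM per kb, which overlapped the spread of *Ccl21d*. *Cxcl12* and *Cxcl5* followed at 17.5 ± 2.66 and 16.7 ± 4.74 CPM per kb and did not differ beyond their spread.

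The receptors with the highest levels were *Cxcr4*, the CXCL12 receptor, at 14.0 ± 2.99 CPM per kb and *Ackr3*, an atypical CXCL12 receptor, at 12.3 ± 1.24. The next ligands, *Ccl27a* (9.94 ± 2.26), *Ccl9* (5.81 ± 1.93), *Ccl28* (5.19 ± 2.27) and *Cxcl16* (3.84 ± 1.35), formed a gradual decline in which each overlapped its neighbour. *Cxcl9* ranked 22 with 1.54 ± 3.04 CPM per kb and *Cxcl10* ranked 24 with 1.06 ± 1.70, and for both the SD over libraries exceeded the mean.

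**Figure D1:**
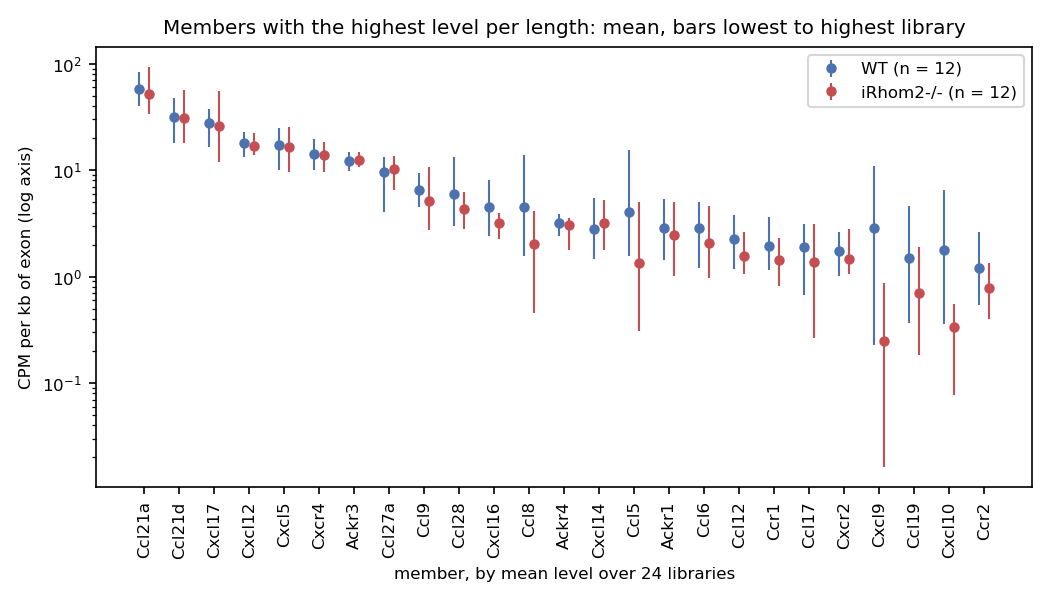
Levels of the 25 members with the highest mean, in CPM per kb of exon on a log axis, for *WT* (n = 12) and *iRhom2-/-* (n = 12) libraries. Points are means and bars run from the lowest to the highest library. *Ccl21a* leads at 57.4 and 52.5 CPM per kb in *WT* and *iRhom2-/-*, and the bars of *Cxcl9* are the widest in both genotypes.

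Across all 24 libraries, the interferon-induced ligands *Cxcl9* and *Cxcl10* were called lower in the *iRhom2-/-* OE. Neither was called without the 3 *WT* libraries that stood apart, which are those with the most *Cxcl9* counts. The comparison used edgeR's quasi-likelihood test with set as a term, and a gene was called at an adjusted p under 0.1 over all genes tested. Enough counts for the test were present for 46 members, 29 ligands and 17 receptors. Of these, 2 were called lower, against 0.852% of the 20763 genes tested, and 0 were called higher, against 1.12%. Both calls also passed an adjusted p of 0.05, as 0.467% of all genes did in this direction.

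Beyond the calls, 39 of the 46 members had a log2 fold change under 0, against 50.3% of all genes. The median was -0.43 (ligands -0.44, receptors -0.41), beside -0.001 over all genes. At an unadjusted p under 0.05, 21 members were lower (14 ligands and 7 receptors), against 6.13% of all genes, and 0 were higher, against 6.26%. Members share cell types and libraries, and these counts are a description of the list. *WT* mouse 1 of 8 weeks held the highest level of 13 of the 46 members, and *WT* libraries 7 and 8 held that of 7 each. Without these 3 libraries 49 members were tested and 0 were called, against 0.537% of all genes called lower. The median was then -0.24, and 8 members were lower at an unadjusted p under 0.05, against 4.66% of all genes. DESeq2, another count model, called 10 members lower with all libraries (*Ccl2*, *Ccl5*, *Ccl7*, *Ccl9*, *Ccl19*, *Ccl20*, *Ccr2*, *Cxcl9*, *Cxcl10* and *Cxcl16*), against 1.76% of all genes, and 0 higher. edgeR's likelihood ratio test called 7 lower, against 1.20%, and its quasi-likelihood test also called 7 lower without *iRhom2-/-* mouse 2 of 10 weeks, against 1.52%.

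**Figure D2:**
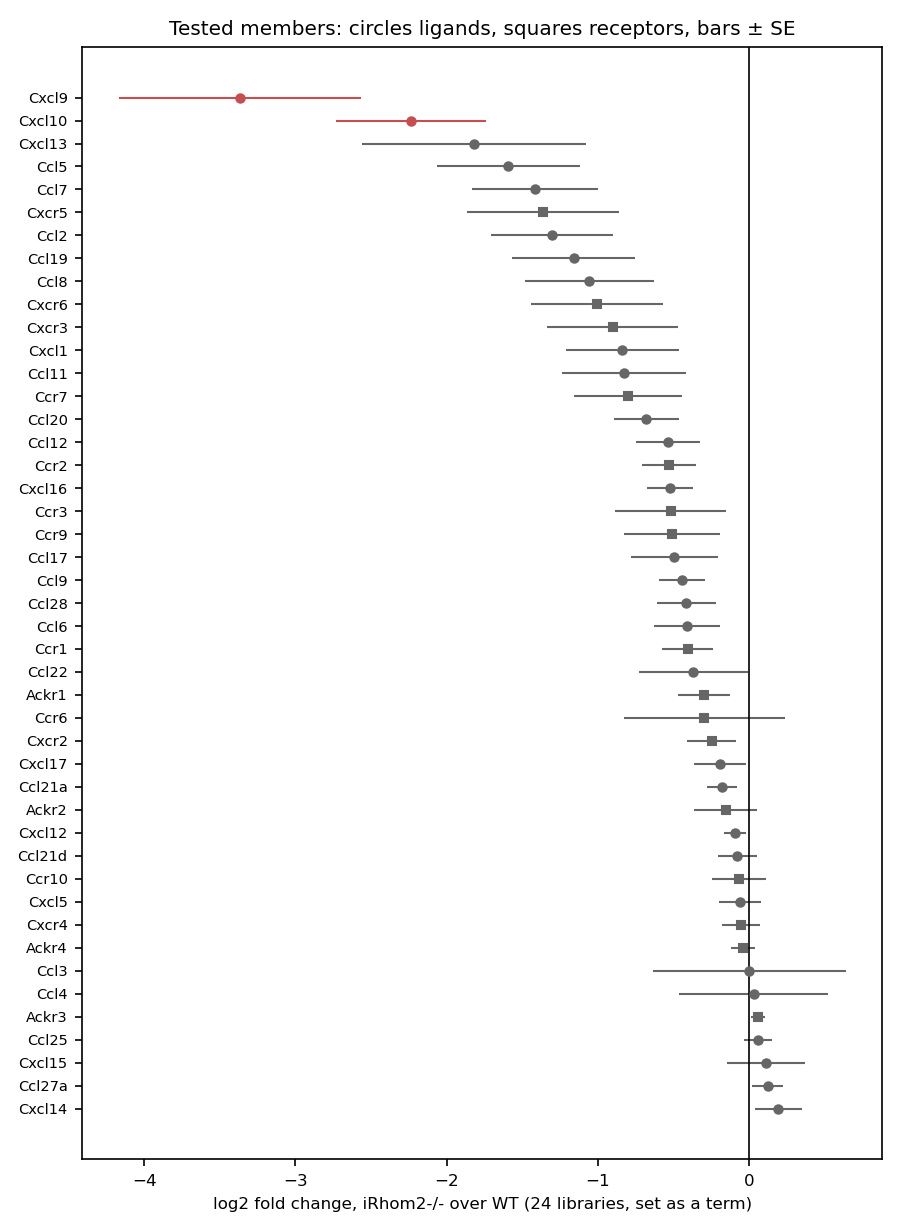
Log2 fold changes (*iRhom2-/-* over *WT*) of members tested, over 12 libraries per genotype. Circles are ligands, squares are receptors, bars are ± SE and red marks an adjusted p under 0.1. Most points lie left of 0, from -3.37 for *Cxcl9* to 0.20 for *Cxcl14*, and the bar of *Cxcl9* is the widest (SE 0.80).

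*Cxcl9* and *Cxcl10* encode ligands of CXCR3, a receptor of activated T cells and NK cells, and lie close together on chromosome 5 (GRCm38, minus strand), at chr5:92321347-92328079 and chr5:92346638-92348889. Both are classical targets of interferon gamma. Their upstream sequences are shown because they are the members called over all libraries. Each is the 250 bases before the transcription start from RefSeq (GRCm38.p6, minus strand, written in the direction of the gene), at chr5:92328080-92328329 for *Cxcl9* and chr5:92348890-92349139 for *Cxcl10*. Capitals mark a match to the core of the interferon-stimulated response element, GAAA, any 2 bases and GAAA, searched on both strands.
Cxcl9: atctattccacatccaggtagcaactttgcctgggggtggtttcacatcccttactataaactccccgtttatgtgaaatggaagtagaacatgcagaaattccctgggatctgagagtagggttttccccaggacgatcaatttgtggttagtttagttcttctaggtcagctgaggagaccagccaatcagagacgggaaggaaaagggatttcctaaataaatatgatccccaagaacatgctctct
Cxcl10: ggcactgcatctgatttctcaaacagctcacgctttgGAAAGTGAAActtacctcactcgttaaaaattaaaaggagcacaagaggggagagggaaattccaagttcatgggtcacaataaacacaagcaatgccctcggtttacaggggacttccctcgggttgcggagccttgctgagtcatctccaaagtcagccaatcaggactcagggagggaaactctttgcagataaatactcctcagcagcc
The match in *Cxcl10*, GAAAGTGAAA, spans bases 213 to 204 before the start. The window of *Cxcl9* held no match to the response element core, the gamma-activated site or the kappaB site in the forms searched. These forms were TTCNNNGAA for the gamma-activated site and GGG, any 2 bases and TTTCC for the kappaB site. Of 32851 promoters in the RefSeq table, 2.98% held the response element core, 7.02% the gamma-activated site and 1.41% the kappaB site. Of the 42 members with a promoter there, 3 held the response element core (*Ccl19*, *Cxcl10* and *Cxcl14*) and 3 the gamma-activated site (*Ccl17*, *Ccr6* and *Cxcl14*). Members are counted as genes, while the shares count promoters, of which a gene can have several. A match is a string of letters and not a measured binding site. Each motif was searched in a single form, so a window without a match can hold other forms of it.

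*Cxcl9* counts in the *WT* libraries ranged from 20 to 1513 with a median of 68.5, and in the *iRhom2-/-* libraries from 2 to 71 with a median of 18. The *WT* values 1513, 861 and 607 came from the 3 libraries named above, the other *WT* libraries had 20 to 243, and the genotypes overlapped. The level was 8.57 ± 11.9 CPM in *WT* and 0.741 ± 0.792 CPM in *iRhom2-/-* (SD, n = 12 each). The log2 fold change was -3.37 (SE 0.80, edgeR adjusted p = 0.0348). Some *iRhom2-/-* libraries, with 2 or 3 counts, were at the limit of 3 counts, so the size of this change is loosely fixed.

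*Cxcl10* was also highest in the 3 libraries. Its counts were 27 to 434 in *WT* (median 48) and 5 to 46 in *iRhom2-/-* (median 21), with 434, 429 and 351 in the 3 *WT* libraries and 27 to 93 in the other 9. The level was 4.03 ± 4.98 CPM in *WT* and 0.752 ± 0.366 CPM in *iRhom2-/-* (SD, n = 12 each), a log2 fold change of -2.23 (SE 0.50, edgeR adjusted p = 0.0239). Exons of *Cxcl10* overlap *Art3* on the opposite strand, and the strand setting of the counting is not given in the sources used here.

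Both ligands remained called when any single library was left out, with log2 fold changes of -3.83 to -2.89 for *Cxcl9* and -2.33 to -1.90 for *Cxcl10*. Without the 3 *WT* libraries neither was called. Leaving out the highest *WT* values makes these differences smaller by design, so this fit cannot decide whether the genotypes differ. *Cxcl9* then had a log2 fold change of -1.45 (edgeR adjusted p = 0.319) and *Cxcl10* of -0.86 (edgeR adjusted p = 0.212). In the 12 mice of 8 and 10 weeks alone the values were -2.67 (edgeR adjusted p = 0.348) and -1.79 (edgeR adjusted p = 0.195).

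*Cxcl11*, the other CXCR3 ligand, is annotated as a polymorphic pseudogene and was too low for the test, with at most 8 counts in a *WT* library (32 in all) and at most 1 in an *iRhom2-/-* library (2 in all). When no filter on low counts was used it was called lower (edgeR adjusted p = 0.0479) together with *Cxcl9* and *Cxcl10*, against 0.416% of all genes. The receptor *Cxcr3* had 7 to 240 counts in *WT* (median 25) and 8 to 34 in *iRhom2-/-* (median 13.5). The 240 counts were in *WT* mouse 1 of 8 weeks, the next highest *WT* library had 48, and the genotypes overlapped. Its log2 fold change was -0.90 (SE 0.432, edgeR adjusted p = 0.398), and -0.37 without the 3 libraries. All 7 T cell markers had a log2 fold change under 0 in the same comparison, against 50.3% of all genes. Their median was -1.35 with 0 of 7 called, and their part in the result was not tested.

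**Figure D3:**
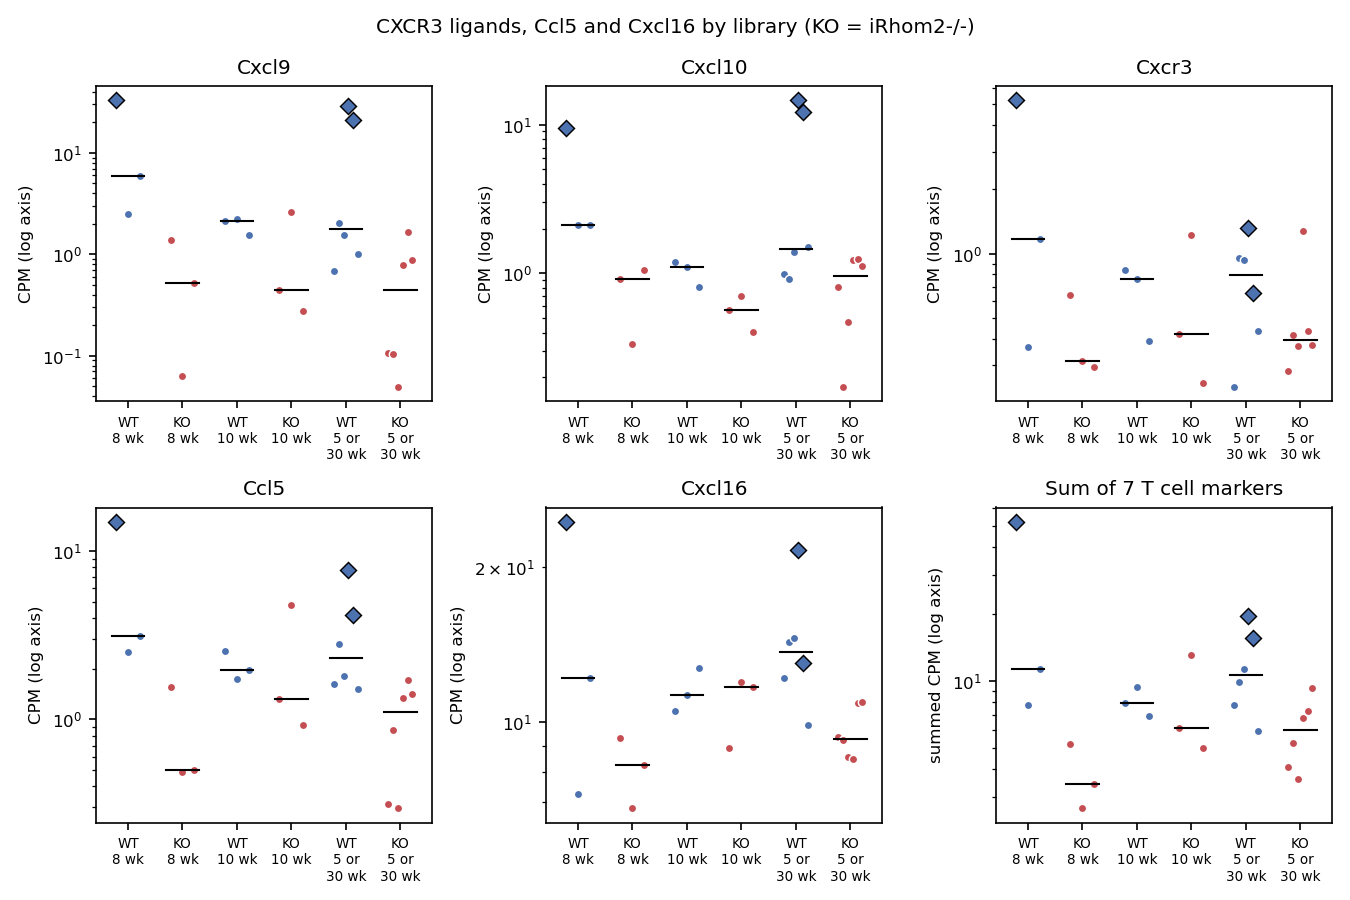
CPM (log axis) of *Cxcl9*, *Cxcl10*, *Cxcr3*, *Ccl5* and *Cxcl16* and summed CPM of 7 T cell markers in each library, by set, with *WT* in blue and *iRhom2-/-* (KO) in red. Black lines are medians and diamonds are *WT* mouse 1 of 8 weeks and *WT* libraries 7 and 8, chosen as the *WT* libraries with the most *Cxcl9* counts. For *Cxcl9* and *Cxcl10* the 3 diamonds lie above every other library, while the other *WT* libraries overlap *iRhom2-/-* in the 5- or 30-week set.

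The monocyte-attracting chemokines were not called by edgeR's quasi-likelihood test, while DESeq2 and edgeR's likelihood ratio test each called *Ccl2* and *Ccl7* lower. *Ccl2*, the main CCR2 ligand, had 4 to 75 counts in *WT* (median 18) and 2 to 17 in *iRhom2-/-* (median 8.5). The highest *WT* values, 75, 47 and 45, came again from the 3 libraries that stood apart, and the genotypes overlapped. The level was 0.769 ± 0.695 CPM against 0.283 ± 0.137 CPM, and the log2 fold change was -1.30 (SE 0.405, edgeR adjusted p = 0.136), or -0.61 without the 3 libraries. With the 3 females left out the log2 fold change of *Ccl2* was -1.62 and it was called lower, as were 0.520% of all genes.

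*Ccl7*, *Ccl8* and *Ccl12* are neighbours of *Ccl2* on chromosome 11 that encode related monocyte attractants, and are named here after their values were seen. *Ccl7* had 5 to 50 counts in *WT* and 0 to 19 in *iRhom2-/-* (medians 16.5 and 6.5), a log2 fold change of -1.41 (SE 0.417, edgeR adjusted p = 0.112), or -0.89 without the 3 libraries. *Ccl8* had 105 to 327 counts in the 3 libraries, 25 to 79 in the other *WT* libraries and 11 to 62 in *iRhom2-/-*. The log2 fold change of *Ccl8* was -1.05 (edgeR adjusted p = 0.295), or -0.27 without the 3 libraries, and that of *Ccl12* was -0.53 (edgeR adjusted p = 0.28), or -0.19. *Ccr2*, the receptor of inflammatory monocytes, had 115 to 814 counts in *WT* (median 217.5) and 87 to 433 in *iRhom2-/-* (median 180), with the top value in *WT* mouse 1 of 8 weeks and wide overlap. Its log2 fold change was -0.53 (SE 0.180, edgeR adjusted p = 0.192), or -0.31 without the 3 libraries. The 8 macrophage markers all had values under 0, against 50.3% of all genes. Their median was -0.28 with 0 called, and their part in the values of these chemokines was not tested.

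*Ccl5*, a chemokine made by T cells, NK cells and macrophages, had 48 to 686 counts in *WT* (median 84) and 9 to 130 in *iRhom2-/-* (median 33). *WT* mouse 1 of 8 weeks had the 686, *WT* library 7 had 229, and *iRhom2-/-* mouse 2 of 10 weeks had the 130, above the 10 other *WT* libraries. The level was 3.88 ± 3.89 CPM in *WT* and 1.30 ± 1.22 CPM in *iRhom2-/-*. The log2 fold change was -1.59 (SE 0.473, edgeR adjusted p = 0.114), and -0.83 without the 3 *WT* libraries.

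*Cxcl16* is a membrane-bound chemokine and its receptor CXCR6 is carried by resident memory and helper T cells. *Cxcl16* had 319 to 1123 counts in *WT* (median 398) and 227 to 449 in *iRhom2-/-* (median 323). *WT* mouse 1 of 8 weeks had the highest value, the next *WT* library had 636, and the genotypes overlapped. The level was 13.7 ± 4.83 CPM in *WT* and 9.54 ± 1.54 CPM in *iRhom2-/-*, a log2 fold change of -0.52 (SE 0.153, edgeR adjusted p = 0.111). Without the 3 libraries it was -0.28 (edgeR adjusted p = 0.307). When genes were required to have 10 counts in every library, *Cxcl16* was the only member called, against 1.05% of all genes lower, and *Cxcl9* and *Cxcl10* could not be tested. *Cxcl16* exons overlap *Zmynd15* on the opposite strand.

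At 8 weeks the ligands *Ccl28*, *Ccl20* and *Ccl9* and the receptor *Cxcr6* were called lower in *iRhom2-/-* mice by edgeR. They were 4 of 43 members tested with 3 mice per genotype, against 1.74% of 19335 genes, and 0 higher, against 3.24%. At an adjusted p of 0.05 the number lower was 0, against 0.517%. Values under 0 were found for 36 of 43 members, against 50.2% of all genes, and 16 were lower at an unadjusted p under 0.05, against 9.02%, with 0 higher, against 10.8%. In CPM, the mice of the genotypes did not overlap for 12 members lower in *iRhom2-/-* (the 4 called, *Ackr1*, *Ccl19*, *Ccl22*, *Ccl5*, *Ccr2*, *Cxcl1*, *Cxcl10* and *Cxcl9*), against 10.6% of all genes, and for 1 higher, *Ccl25*, against 16.1%. The median was -0.80, and -0.35 without *WT* mouse 1. DESeq2 called 13 members lower, against 5.53% of all genes.

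Markers of several cell types differed between the same mice. Plasma cell markers summed to 256.9 to 1631 CPM in *WT* and 152.8 to 169.2 CPM in *iRhom2-/-*, and T cell markers to 7.78 to 52.2 and 2.66 to 5.16 CPM. Mature OSN markers lay the other way, with 8432 to 10630 CPM in *WT* and 12590 to 16090 CPM in *iRhom2-/-*. None of these sums overlapped between genotypes, and NK cell markers did not either (2.08 to 6.77 and 1.39 to 2.03 CPM). Of single genes, 10.6% were lower and 16.1% higher without overlap, as given above. Macrophage markers overlapped, at 291.3 to 612.5 and 169.1 to 296.7 CPM, as did the sums of the other cell types examined. The part of these cell types in the values at 8 weeks was not tested.

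*Ccl28* (chr13:119623819-119654359, plus strand) encodes a mucosal chemokine that attracts IgA plasma cells through CCR10. It had 2928, 1658 and 1232 counts in the *WT* mice of 8 weeks and 720, 763 and 939 in the *iRhom2-/-* mice. Every *WT* value was above every *iRhom2-/-* value. The level was 43.9 ± 17.7 CPM against 17.5 ± 3.44 CPM (SD, n = 3 each) and the log2 fold change was -1.35 (SE 0.286, edgeR adjusted p = 0.0697). Without *WT* mouse 1, the mouse with the highest plasma cell markers, it was -0.98 (edgeR adjusted p = 0.0522), and the other *WT* mice also had higher plasma cell markers than every *iRhom2-/-* mouse. The call held in 2 of the 6 fits that left out a mouse, with values of -1.57 to -0.98. At 10 weeks the counts were 447, 810 and 528 in *WT* and 485, 819 and 439 in *iRhom2-/-*, and the log2 fold change of 0.07 turned to -0.02 when libraries were scaled by their totals. The receptor *Ccr10* had 117, 63 and 48 counts in *WT* and 58, 53 and 45 in *iRhom2-/-* at 8 weeks (log2 fold change -0.64, edgeR adjusted p = 0.365).

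*Ccl20* is the epithelial ligand of CCR6, the receptor of Th17 cells and some dendritic cells. It had 109, 65 and 62 counts in the *WT* mice of 8 weeks and 25, 22 and 33 in the *iRhom2-/-* mice, with no overlap. The level was 1.79 ± 0.507 CPM against 0.578 ± 0.153 CPM, a log2 fold change of -1.65 (SE 0.354, edgeR adjusted p = 0.0712). The call was lost when any of the 6 mice was left out, while the value stayed between -1.88 and -1.39. *Ccr6* had at most 16 counts in any library.

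*Ccl9*, a myeloid ligand of CCR1, had 1307, 736 and 693 counts in *WT* and 405, 417 and 557 in *iRhom2-/-* at 8 weeks, again with no overlap. The level was 20.7 ± 6.72 CPM against 9.96 ± 2.37 CPM, a log2 fold change of -1.08 (SE 0.257, edgeR adjusted p = 0.0866). Leaving out any of the 6 mice lost this call too, with values of -1.29 to -0.78. At 10 weeks the *iRhom2-/-* mice had 661, 889 and 671 counts beside 672, 665 and 631 in *WT*, and the value was 0.26. *Ccr1* had 212, 189 and 209 counts in *WT* and 236, 149 and 160 in *iRhom2-/-* at 8 weeks (log2 fold change -0.28, edgeR adjusted p = 0.509).

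The windows upstream of *Ccl20* and *Ccl9* are shown because these called members each hold a match to the form of the kappaB site that was searched. They are 250 bases before the start from RefSeq (GRCm38.p6), at chr1:83116516-83116765 on the plus strand and chr11:83578637-83578886 on the minus strand, written in the direction of the gene. Capitals mark the matches, which read as the reverse complement of the kappaB site.
Ccl20: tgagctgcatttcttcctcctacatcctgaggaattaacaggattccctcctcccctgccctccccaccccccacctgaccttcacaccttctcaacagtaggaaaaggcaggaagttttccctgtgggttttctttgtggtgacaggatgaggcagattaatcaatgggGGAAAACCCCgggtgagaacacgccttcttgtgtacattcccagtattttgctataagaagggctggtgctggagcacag
Ccl9: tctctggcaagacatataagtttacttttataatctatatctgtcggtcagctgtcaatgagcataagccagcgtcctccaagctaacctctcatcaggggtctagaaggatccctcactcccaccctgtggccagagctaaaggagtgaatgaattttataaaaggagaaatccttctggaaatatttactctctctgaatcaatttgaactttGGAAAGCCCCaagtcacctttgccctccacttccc
The matches are GGAAAACCCC at bases 80 to 71 before the start of *Ccl20* and GGAAAGCCCC at bases 35 to 26 before that of *Ccl9*. Among the 42 members with a promoter, 6 held a match to this form (*Ccl20*, *Ccl9*, *Ccr3*, *Cxcl1*, *Cxcl2* and *Cxcl3*). These are counted as genes, while the 1.41% given above counts promoters, of which a gene can have several. Other forms of the kappaB site were not searched. *Ccl28* and *Cxcr6*, the other members called at 8 weeks, had no match to the searched forms of the 3 motifs in their windows.

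*Cxcr6* had 437, 97 and 114 counts in the *WT* mice of 8 weeks and 40, 13 and 14 in the *iRhom2-/-* mice. The groups did not overlap, and *WT* mouse 1 was far above the others. The level was 4.84 ± 4.07 CPM against 0.474 ± 0.309 CPM and the log2 fold change was -3.36 (SE 0.723, edgeR adjusted p = 0.0712). Without *WT* mouse 1 it was -2.40 (edgeR adjusted p = 0.0866), and the call held in 2 of the 6 fits that left out a mouse, with values of -4.06 to -2.40. Over all 24 libraries *Cxcr6* had 27 to 437 counts in *WT* and 13 to 91 in *iRhom2-/-* (medians 61 and 34.5), a log2 fold change of -1.005 (SE 0.435, edgeR adjusted p = 0.334). The 7 T cell markers had a median of -3.11 at 8 weeks, with 2 called lower, against 1.74% of all genes. Their part in the *Cxcr6* value was not tested.

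**Figure D4:**
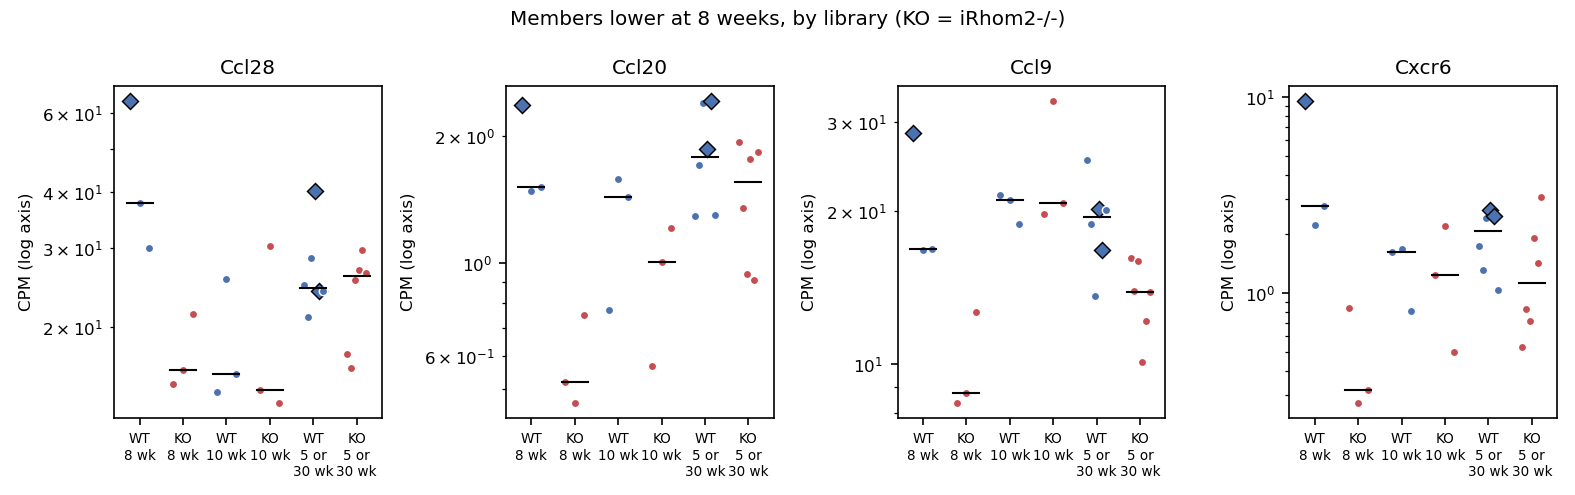
CPM (log axis) of the 4 members called at 8 weeks, by library and set, with *WT* in blue, *iRhom2-/-* (KO) in red, medians as black lines and the 3 *WT* libraries that stood apart as diamonds. For *Ccl28*, *Ccl20*, *Ccl9* and *Cxcr6* the 3 *WT* mice of 8 weeks lie above the 3 *iRhom2-/-* mice, and in the other sets the genotypes overlap.

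Other members at 8 weeks included *Cxcl9*, with 1513, 110 and 243 counts in *WT* and 66, 3 and 23 in *iRhom2-/-*, and *Cxcl10*, with 434, 93 and 87 against 44, 16 and 46. The log2 fold changes were -4.42 (SE 1.21) for *Cxcl9* and -2.60 (SE 0.727) for *Cxcl10*, with edgeR adjusted p of 0.116 and 0.12, and neither was called. *Ccl5* had 686, 110 and 129 counts against 75, 23 and 22, a log2 fold change of -3.03 (SE 0.835, edgeR adjusted p = 0.116). *Ccr2* had 814, 467 and 414 counts against 433, 181 and 201, a log2 fold change of -1.16 (SE 0.373, edgeR adjusted p = 0.155). In these 4 genes *WT* mouse 1 was the highest and no *iRhom2-/-* mouse reached a *WT* mouse in CPM. *Ccl25*, an epithelial ligand of the gut-homing receptor CCR9, had 123, 153 and 132 counts in *WT* and 174, 188 and 181 in *iRhom2-/-*. Its log2 fold change was 0.30 (SE 0.187, edgeR adjusted p = 0.41). Leaving out mice in turn gave 0 to 4 calls in this set, with 0 when *WT* mouse 2, *iRhom2-/-* mouse 2 or *iRhom2-/-* mouse 3 was left out. There was 1 call (*Ccl28*) without *WT* mouse 3 and 2 (*Ccl28* and *Cxcr6*) without *WT* mouse 1. The 4 calls without *iRhom2-/-* mouse 1 were *Ccl5*, *Ccr2*, *Ccr7* and *Cxcr6*, of which only *Cxcr6* was called with all mice. The share of all genes called in these smaller fits is not given, so gained or lost calls cannot be set against it.

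At 10 weeks the members were spread evenly around 0. Of 38 members tested with 3 mice per genotype, edgeR and DESeq2 each called 0, and over all 18764 genes edgeR called 0.112% lower and 0.0853% higher (0.0799% lower at an adjusted p of 0.05) and DESeq2 0.795% lower. At an unadjusted p under 0.05, 2 members were lower, against 3.82% of all genes, and 1 was higher, against 3.97%. Values under 0 were found for 20 members, against 48.6% of all genes, and the median was -0.02. Leaving out single mice moved the median to between -0.17 (without *iRhom2-/-* mouse 2) and 0.10 (without *iRhom2-/-* mouse 3). In CPM, mice of the genotypes did not overlap for 4 members lower in *iRhom2-/-* (among them *Ccl12*, *Ccr1* and *Cxcl10*), against 6.44% of all genes, and for 1 higher (*Cxcl14*), against 6.76%.

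*Cxcl10* had 37, 35 and 27 counts in the *WT* mice of 10 weeks and 19, 19 and 13 in the *iRhom2-/-* mice, a log2 fold change of -0.89 (edgeR adjusted p = 0.636). *Cxcl14*, a constitutive chemokine of epithelia, had 102, 92 and 124 counts in *WT* and 153, 172 and 132 in *iRhom2-/-*, a log2 fold change of 0.61 (edgeR adjusted p = 0.598). None of these passed the test. *Cxcl9* overlapped at this age, with 66, 71 and 52 counts in *WT* and 15, 71 and 9 in *iRhom2-/-*. The library with 71, *iRhom2-/-* mouse 2, also had the highest summed macrophage and erythrocyte markers of the series (720.5 and 3982 CPM), and without it the log2 fold change of *Cxcl9* at 10 weeks moved from -0.83 to -2.44.

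In the 5- or 30-week libraries 35 of 40 members had values under 0, against 50.3% of all 18481 genes, and edgeR called 0 in either direction. Over all genes 0.422% were called lower and 0.649% higher, and 0.119% lower at an adjusted p of 0.05. The median was -0.39, and -0.19 without *WT* libraries 7 and 8. At an unadjusted p under 0.05, 11 members were lower, all of them ligands, against 6.80% of all genes, and 0 were higher, against 7.35%. In CPM, the 6 libraries per genotype overlapped for every member. Over all genes 0.666% were lower and 0.996% higher without overlap, so 0 among 40 members is close to these shares. The spread within a genotype includes any difference between 5 and 30 weeks, which could not be separated. DESeq2 called 6 members lower in these libraries (*Ccl19*, *Ccl5*, *Ccl9*, *Cxcl10*, *Cxcl16* and *Cxcl9*), against 2.30% of all genes.

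*Ccl2* had the smallest p of the set, with *WT* counts of 14 to 75 (median 23) and *iRhom2-/-* counts of 2 to 17 (median 8). Its log2 fold change was -1.89 (SE 0.517, edgeR adjusted p = 0.139), and -1.06 without *WT* libraries 7 and 8. *Cxcl9* had 20 to 861 counts in *WT* (median 54.5) and 2 to 49 in *iRhom2-/-* (median 12), a log2 fold change of -3.96 (SE 1.10, edgeR adjusted p = 0.148), and -1.14 without the same libraries. *Cxcl10* had 29 to 429 counts (median 48) against 5 to 37 (median 28), and its log2 fold change of -2.64 (SE 0.789, edgeR adjusted p = 0.176) became -0.50. *Cxcl16* had 358 to 636 counts in *WT* and 227 to 347 in *iRhom2-/-*, which in CPM overlapped (lowest *WT* library 9.87, highest *iRhom2-/-* library 10.9), and a log2 fold change of -0.56 (SE 0.161, edgeR adjusted p = 0.157).

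The differences between sets were tested in a fit with the interaction of genotype and set. edgeR called 0 of 46 members, and 0.0482% of all 20763 genes, and 11 members had an unadjusted p under 0.05, against 12.7% of all genes. The smallest belonged to *Cxcr6* and *Ccl9*, which DESeq2 called, against 2.59% of all genes. *Cxcr6* had log2 fold changes of -3.36, -0.07 and -0.44 at 8, 10 and 5 or 30 weeks, *Ccl9* had -1.08, 0.26 and -0.47, and *Ccl28* had -1.35, 0.07 and -0.18, but by edgeR no member was shown to differ between sets.

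**Figure D5:**
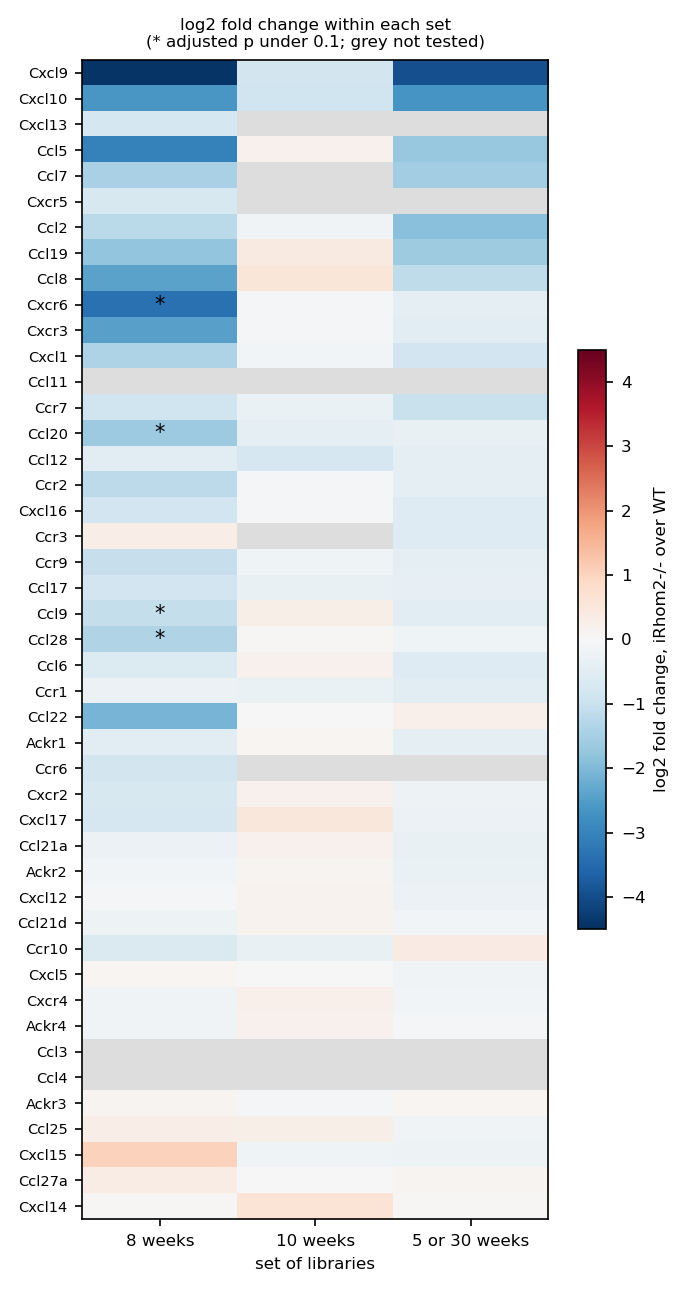
Heat map of log2 fold changes (*iRhom2-/-* over *WT*) of members within each set, with blue or red for the sign and depth of colour for size. An asterisk marks an adjusted p under 0.1 and grey a member not tested. The 8-week column holds 4 asterisks (*Cxcr6*, *Ccl20*, *Ccl9* and *Ccl28*) and the other columns hold none, and the deepest blue is that of *Cxcl9* at 8 weeks (-4.42) and at 5 or 30 weeks (-3.96).

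The lymphoid chemokines combined abundant members with little difference and scarce members with large, loosely measured ones. *Ccl21a* had 1200 to 2417 counts in *WT* (median 1628) and 911 to 2572 in *iRhom2-/-* (median 1440), with full overlap and a log2 fold change of -0.18 (SE 0.097, edgeR adjusted p = 0.484). Added to *Ccl21b* and *Ccl21d*, the log2 fold change was -0.14 (edgeR adjusted p = 0.636). *Ccl19*, the other CCR7 ligand, had 10 to 118 counts in *WT* (median 33) and 5 to 53 in *iRhom2-/-* (median 15.5). The highest *WT* value was in *WT* library 7, and the log2 fold change was -1.16 (SE 0.406, edgeR adjusted p = 0.204), or -0.61 without the 3 *WT* libraries that stood apart.

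*Ccr7*, which guides dendritic cells and naive T cells to lymph nodes, had 19 to 70 counts in *WT* and 0 to 54 in *iRhom2-/-* (medians 34 and 19.5), a log2 fold change of -0.80 (edgeR adjusted p = 0.355). *Cxcl13*, the B cell follicle chemokine, had 0 to 117 counts in *WT* (median 9) and 0 to 29 in *iRhom2-/-* (median 5.5), and its high values, 117, 73 and 53, were scattered over *WT* libraries 12, 7 and 10. Its log2 fold change was -1.82 (SE 0.741, edgeR adjusted p = 0.295). *Cxcr5*, the CXCL13 receptor of B cells, had 1 to 35 counts against 0 to 24, a log2 fold change of -1.36 (edgeR adjusted p = 0.239). The 6 B cell markers had a median of -0.70 with 0 called, and their part in these values was not tested. *Ackr4*, which scavenges CCL19 and CCL21, had 403 to 694 counts in *WT* and 438 to 863 in *iRhom2-/-*, a log2 fold change of -0.04 (edgeR adjusted p = 0.907).

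The stromal axis of *Cxcl12* and its receptors differed little between genotypes over all libraries. *Cxcl12*, which retains progenitors and lymphocytes in tissue, had 3427 to 6748 counts in *WT* (median 4932) and 3201 to 7403 in *iRhom2-/-* (median 4275). The genotypes overlapped throughout, with 148.6 ± 24.04 CPM against 137.9 ± 18.6 CPM and a log2 fold change of -0.09 (SE 0.073, edgeR adjusted p = 0.677). *Cxcr4* had a log2 fold change of -0.05 (SE 0.126) and *Ackr3* of 0.06 (SE 0.048), with edgeR adjusted p of 0.924 and 0.694. The signs for *Cxcl12* and *Cxcr4* turned, to 0.06 and 0.02, in the 12 mice of 8 and 10 weeks alone. By set, *Cxcl12* had log2 fold changes of -0.04 at 8 weeks, 0.16 at 10 weeks and -0.25 at 5 or 30 weeks. The last (SE 0.107, edgeR adjusted p = 0.328) came from means of 167.4 CPM in *WT* and 140.4 CPM in *iRhom2-/-*. *Cxcr4* counts varied widely within each genotype of the 5- or 30-week libraries, as given at the end.

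The neutrophil-attracting ligands and their receptor did not pass the test. *Cxcl5*, an epithelial CXCR2 ligand, had 585 to 1639 counts in *WT* (median 1093.5) and 508 to 1708 in *iRhom2-/-* (median 1021), a log2 fold change of -0.06 (SE 0.138, edgeR adjusted p = 0.919). *Cxcl1* had 1 to 38 counts against 1 to 18, a log2 fold change of -0.84 (SE 0.373, edgeR adjusted p = 0.353). *Cxcl2* was too low for the test, with 51 counts in *WT* library 12, 39 in *iRhom2-/-* library 9 and at most 8 elsewhere. *Cxcr2*, the receptor on neutrophils, had 103 to 365 counts against 103 to 250 and a log2 fold change of -0.25 (SE 0.159, edgeR adjusted p = 0.583). Neutrophil markers summed to 141.5 to 1821 CPM in *WT* and 187.3 to 1220 CPM in *iRhom2-/-*, with 5 of 7 above 0 and 0 called.

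Among the remaining epithelial members, *Cxcl17* had 473 to 1314 counts in *WT* and 406 to 1127 in *iRhom2-/-* (log2 fold change -0.19, edgeR adjusted p = 0.732). *Cxcl14* had 92 to 315 against 132 to 285 (0.20, edgeR adjusted p = 0.683), and *Ccl27a*, a skin-homing chemokine, had 442 to 1057 against 645 to 1102 (0.13, edgeR adjusted p = 0.696). *Ccl27a* shares near-identical sequence with *Ccl27b*, which was listed at 0 in all libraries, and overlaps *Il11ra1* on the opposite strand. *Cxcl15*, a lung epithelial chemokine, had a log2 fold change of 0.11 and *Ccl25* of 0.06, neither past the test.

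*Ccr9*, the CCL25 receptor, had 9 to 44 counts in *WT* and 5 to 26 in *iRhom2-/-* (log2 fold change -0.51, edgeR adjusted p = 0.568) and shares exon sequence with *Gm17200* on the same strand. *Ccl11*, the eosinophil chemokine eotaxin, had 4 to 35 counts against 2 to 30 (-0.83, edgeR adjusted p = 0.422) and turned to 0.09 in the 12 mice of 8 and 10 weeks. Its receptor *Ccr3* had 2 to 34 against 1 to 37 (-0.52, edgeR adjusted p = 0.629). *Ackr1*, the chemokine-binding receptor of venules and red cells, had 59 to 232 counts against 38 to 229 (-0.30, edgeR adjusted p = 0.53), and shares exon sequence with *Cadm3* on the same strand.

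The other genes of the chemokine system showed few calls in the comparison over all libraries. Of all genes tested there, 50.3% had values under 0 and 0.852% were called lower. The remaining chemokines and receptors (*Cx3cl1*, *Cx3cr1*, *Xcl1*, *Xcr1*, *Pf4*, *Ppbp*, *Ccrl2*) and the chemokine-cutting protease *Dpp4* had 7 of 8 values under 0 and 0 calls. *Xcl1*, a T cell and NK cell chemokine, had a log2 fold change of -1.96 (edgeR adjusted p = 0.187), and *Cx3cl1*, another membrane-bound chemokine and an ADAM17 substrate, had 0.003 (edgeR adjusted p = 0.995). Of 20 genes of signalling downstream of the receptors, 16 had values under 0 and 1 was called, *Arrb1*, a beta-arrestin that ends receptor signalling (-0.24, edgeR adjusted p = 0.0681). *Dock2*, which drives leukocyte migration, had -0.51 (edgeR adjusted p = 0.315).

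The inducers of chemokine transcription were not called. The shares over all genes were again 50.3% with values under 0 and 0.852% called lower. Of 12 tested genes of interferon signalling, 11 had values under 0, with a median of -0.11. *Irf1*, an interferon-induced transcription factor, had -0.33 (edgeR adjusted p = 0.409), while *Ifng* was too low for the test. Their summed level was 569.6 to 771.9 CPM in the 3 *WT* libraries that stood apart, 461.7 to 524.1 CPM in the other *WT* libraries and 429.1 to 542.0 CPM in *iRhom2-/-*. All 14 genes of TNF, lymphotoxin and NF-kB signalling had values under 0, with a median of -0.14 and 0 called. Among them were *Tnf* (-0.23, edgeR adjusted p = 0.906), *Ltb*, a lymphotoxin subunit (-0.89, edgeR adjusted p = 0.142) and *Tnfrsf1b*, a TNF receptor (-0.53, edgeR adjusted p = 0.156). The proteases and the other iRhom showed -0.09 for *Adam17*, -0.04 for *Adam10* and -0.03 for *Rhbdf1*, none of which was called.

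Too low for the test over all libraries were 11 members. *Ccl26* and *Ccl27b* were listed at 0 throughout, and *Ccl21b* had 17 counts in a *WT* library and 2 and 15 in *iRhom2-/-* libraries of 10 weeks, with 0 elsewhere. *Ccl1*, *Ccl24*, *Ccr4*, *Ccr8*, *Cxcl3* and *Cxcr1* reached at most 7, 8, 13, 4, 12 and 2 counts, and *Cxcl2* and *Cxcl11* are described above. Other members tested were *Ackr2*, *Ccl3*, *Ccl4*, *Ccl6*, *Ccl17* and *Ccl22*, with log2 fold changes of -0.49 to 0.03 and 0 called.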

How the data were processed

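Bulk RNAseq of the OE was measured in 24 libraries of 12 *WT* and 12 *iRhom2-/-* mice, made with poly(A) selection and a directional kit. Reads were mapped by the authors to GRCm38 (STAR, run in nf-core), and RSEM gave expected counts per gene, which they deposited unscaled as whole numbers. How these estimated counts were rounded, the annotation release, any filter on genes and the strand setting are not given in the sources used here. The deposited table also holds the authors' log2 fold change, log2 CPM, likelihood ratio, p-value and FDR per gene, which were not used.

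The counts were fitted in edgeR 4.0.16 (R 4.3.3) after filterByExpr and TMM scaling. Its quasi-likelihood test compared *iRhom2-/-* with *WT* over all libraries with set as a term and within each set, and tested the interaction of genotype and set. P-values were adjusted by Benjamini-Hochberg over every gene in the fit, and genes under 0.1 were called (0.05 as the stricter threshold). CPM are TMM-scaled, and means are given with SD over mice or libraries. The lowest chi-square per degree of freedom between 42 pairs of libraries of a group was 12.8, so none was counted as a duplicate. The code was tested on simulated data. DESeq2 1.42.0, the likelihood ratio test, other scaling, filters, terms and samples, and leaving out each library were alternatives. Columns of the 5- or 30-week libraries name the genotype but not the mouse.

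The members and the lists of genes were chosen with earlier results of these data known. Genes named are those past the threshold in any comparison, the 3 with the smallest p in each direction over all libraries and the 2 in each direction in each set, the 6 ligands and 6 receptors with the highest CPM, and ligand and receptor partners set in a list. Some genes that this rule names are not reported here and are left out of the plots. *Ccl7*, *Ccl8*, *Ccl12*, *Ccl22* and the members that failed the test's filter were named after their values were seen. Coordinates and exon lengths are those of GENCODE for GRCm38, and sequences are those of RefSeq for GRCm38.p6.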

Additional observations from a re-analysis of the deposited data

Results flagged for a closer look

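In the 5- or 30-week libraries, 77 groups of 6 libraries were examined for a highest or lowest library set apart from the others, by its gap to the nearest library as a share of the group's range in CPM, with a limit of 0.625. This was passed in 6 groups, and chance gives about 1 in 20. In *iRhom2-/-* library 9, *Cxcl2* was highest (39 counts, 1.32 CPM, next 0.235, gap share 0.8223), as were *Cxcr2* (8.49 CPM, next 4.81, gap share 0.8019) and *Cxcl17* (29.2 CPM, next 19.3, gap share 0.6647), while *Ccl27a* was lowest (23.1 CPM, next 26.7, gap share 0.6252). In *WT* library 12, *Cxcl2* was highest (51 counts, 1.77 CPM, next 0.0678, gap share 0.9617). In *iRhom2-/-* library 7, *Cxcr3* was highest (34 counts, 1.27 CPM, next 0.437, gap share 0.8428).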

How the results depend on the processing

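Over all libraries, the members called lower numbered 10 with DESeq2 (against 1.76% of all genes), 7 with edgeR's likelihood ratio test (against 1.20%), 1 with a minimum of 10 counts in every library, and 0 in the 12 mice of 8 and 10 weeks or without the 3 *WT* libraries that stood apart (chosen after seeing the data). They numbered 2 to 7 when single libraries were left out, with 4 without *WT* library 9 and 7 without *iRhom2-/-* mouse 2 of 10 weeks (against 1.52% of all genes). At 8 weeks they numbered 13 with DESeq2 (against 5.53%), 0 at an adjusted p of 0.05 and 0 to 4 when single mice were left out, and the median ranged from -1.01 to -0.35, the last without *WT* mouse 1. DESeq2 called 6 members lower at 5 or 30 weeks (against 2.30%) and 2 in the interaction (against 2.59%), where edgeR called 0. Whether replicate numbers pair the mice of 8 and 10 weeks was not settled. Same-numbered mice deviated together with correlations of -0.0147 to 0.27, and 3 of 6 pairs were over 0.1. For mice of different numbers the correlations were -0.361 to 0.223. With the number as a replicate block 0 members were called and the median was -0.43. Shares of all genes are not given for this fit or for the 12 mice without the block. They are also not given for leaving out single libraries, other than *iRhom2-/-* mouse 2 of 10 weeks. These counts of calls cannot be set against all genes. In the 12 mice without and with this block, log2 fold changes turned to 0.019 and 0.0041 for *Ackr4*, 0.092 and 0.015 for *Ccl11*, 0.062 and 0.061 for *Cxcl12*, 0.048 and 0.054 for *Cxcl5*, and 0.022 and 0.029 for *Cxcr4*, and without it to 0.0064 for *Ccr6*. Without the 3 *WT* libraries they turned to 0.11 for *Cxcr4*, 0.10 for *Ccl21d*, 0.020 for *Ccr10*, 0.0090 for *Cxcl17* and -0.0039 for *Cxcl15*, and in males alone to -0.0041 for *Ccl25*. At 10 weeks *Ccl28* turned to -0.016 with scaling by library totals. Leaving out single libraries gave ranges across 0 for *Ackr4* (-0.079 to 0.014), *Ccl21d* (-0.13 to 0.0099), *Ccr10* (-0.13 to 0.055, or from -0.090 among mice of 8 and 10 weeks), *Cxcl15* (-0.040 to 0.17, or up to 0.16 among the same mice), *Cxcl5* (-0.12 to 0.0088) and *Cxcr4* (-0.092 to 0.0072), and at 10 weeks for *Ccl28* (-0.42 to 0.38), *Ccl9* (-0.030 to 0.38) and *Cxcr6* (-0.67 to 0.31). The cause was not tested. Of 1420 values of 41 genes over all libraries, 1359 kept direction and side of the threshold, 31 newly passed it, 6 no longer did and 24 turned. Of these genes only *Cxcl9*, *Cxcl10* and *Rhbdf2* were called in the main fit. Most of the 1359 are therefore uncalled genes that stayed uncalled, and they say little about the calls. Depth limits the members with few counts, since a count of 3, the limit that a count of 0 allows, was up to 0.112 CPM in a single library.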

Other observations

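In the 5- or 30-week libraries the 4 markers of immature OSNs summed to 671.4 to 793.2 CPM in *WT* libraries 7 to 9 and to 323.2 to 341.7 CPM in *WT* libraries 10 to 12. In *iRhom2-/-* they summed to 284.7 to 357.7 CPM in libraries 7 to 9 and to 765.0 to 902.6 CPM in libraries 10 to 12. The ages of these libraries were not assigned, and *Cxcr4* followed the same order, with 976 to 1182, 530 to 616, 459 to 643 and 805 to 1143 counts.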
